A study of Homo sapiens with 3 samples.

Results

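The genes described here are the enzymes and helper proteins that cut and trim prohormones into active peptides. They are 8 of the 33538 features counted: PCSK1, PCSK2, SCG5, PCSK1N, CPE, CPD, PAM and FURIN, found by symbol, and all 8 were detected. The HUES8 line, a long-established line of human embryonic stem cells, was differentiated by a published protocol into stem-cell-derived alpha cells (called SC-A in the labels), the glucagon-secreting type of the islet. There is 1 group of 3 libraries, replicates 1, 2 and 3, made with the 10x Genomics Single Cell 3' v3 kit from dispersed clusters, with no treatment and no other genotype. Nothing in the labels says that the replicates are separate differentiations, so the p-values hold for these libraries alone, whose spread may be technical. They also draw on variance pooled over genes, and with so few libraries they can be small where libraries differ.

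Islet prohormones are made as long precursors and are cut at pairs of basic amino acids inside acidic secretory granules. The convertase PC1/3 (gene PCSK1) cuts proinsulin and, in gut L cells, releases GLP-1 from proglucagon. The convertase PC2 (PCSK2), which needs the chaperone 7B2 (SCG5), releases glucagon from the same precursor in alpha cells and helps to mature proinsulin and prosomatostatin. ProSAAS (PCSK1N) inhibits PC1/3. After the cut, carboxypeptidases (CPE in granules, CPD in the trans-Golgi network) remove the exposed basic residues, PAM turns a C-terminal glycine into an amide, and FURIN is the convertase of the Golgi present in most cell types.

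PCSK1 and PCSK2 differed in opposite directions between GCG and TPH1 cells, and SCG5 in that of PCSK2, so the promoter windows of these 3 genes are shown, from 250 bases before to 50 bases after a RefSeq start (GRCh38.p14). PCSK1 lies on the minus strand of chromosome 5 and its window spans chr5:96433199-96433498. PCSK2 lies on the plus strand of chromosome 20 and its window spans chr20:17225857-17226156. SCG5 lies on the plus strand of chromosome 15 and its window spans chr15:32641460-32641759. Capitals mark TGACG, the core of the cyclic AMP response element (CRE), on either strand (CGTCA when read on the other).
PCSK1: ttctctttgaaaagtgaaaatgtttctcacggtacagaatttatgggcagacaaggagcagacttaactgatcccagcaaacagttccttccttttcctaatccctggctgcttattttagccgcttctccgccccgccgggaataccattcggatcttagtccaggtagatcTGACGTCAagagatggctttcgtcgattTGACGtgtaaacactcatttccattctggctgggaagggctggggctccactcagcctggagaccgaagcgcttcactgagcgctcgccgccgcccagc
PCSK2: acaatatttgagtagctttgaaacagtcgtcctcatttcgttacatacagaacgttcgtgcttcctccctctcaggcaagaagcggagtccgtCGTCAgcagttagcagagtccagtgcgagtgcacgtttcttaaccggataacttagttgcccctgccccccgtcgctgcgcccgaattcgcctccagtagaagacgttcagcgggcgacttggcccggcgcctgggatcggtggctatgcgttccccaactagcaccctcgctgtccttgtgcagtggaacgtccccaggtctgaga
SCG5: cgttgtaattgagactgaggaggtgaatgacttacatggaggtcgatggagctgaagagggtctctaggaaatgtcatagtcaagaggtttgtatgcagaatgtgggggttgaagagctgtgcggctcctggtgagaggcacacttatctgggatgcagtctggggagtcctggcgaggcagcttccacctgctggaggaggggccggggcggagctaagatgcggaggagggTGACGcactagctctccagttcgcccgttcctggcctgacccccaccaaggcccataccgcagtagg
The PCSK1 window held the full palindrome TGACGTCA, which reads as the core on both strands, starting at -77 from the start site, and a separate core at -49. The PCSK2 window held 1 core, at -157, and the SCG5 window 1, at -17; neither held the full element. Of 35116 promoter windows of the same length, 1.85% held TGACGTCA and 24.6% held the core on either strand. RefSeq lists 2 starts for PCSK1 and 2 for PCSK2. The window of the other PCSK1 start held no core, and that of the other PCSK2 start held 1, at -96. Such a match describes the letters only.

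Cells were kept at 1000 or more genes and at most 20% mitochondrial UMIs (UMIs are counted RNA molecules). Replicates 1, 2 and 3 held 30139788, 31122791 and 30980799 UMIs. The cut left 1160, 1027 and 1466 cells, whose median depth was 15267, 20721 and 9991.5 UMIs. The libraries shared 1 to 4 barcodes per pair, none of them among the kept cells. Cells were sorted by rule. GCG cells had GCG (glucagon) at 5% of UMIs or more and met none of the next 4 rules. INS cells had insulin at 1% or more, SST cells somatostatin at 1% or more, TPH1 cells at least 3 UMIs of TPH1 (the enzyme of serotonin synthesis in gut enterochromaffin cells), and collagen cells COL1A1, COL1A2 and COL3A1 together at 0.1% or more. Replicates 1, 2 and 3 gave 809, 778 and 883 GCG cells, 26, 59 and 7 INS cells, 30, 54 and 29 SST cells, 36, 20 and 107 TPH1 cells, and 9, 10 and 93 collagen cells.

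The classes were checked on markers that their rules did not use. Levels are in CPM, the UMIs of a gene per 1e+06 UMIs of the summed cells. GCG cells carried all 9 other alpha-cell markers in every library, with a summed level of 80718, 78457 and 79767 CPM. The same markers summed to 79678, 73047 and 65758 CPM in INS cells and 60958, 67166 and 70930 CPM in SST cells. TPH1 cells held 21683 to 29778 CPM, so these markers set GCG cells little apart from INS and SST cells. Each molecule is counted once, at its 3′ end, so levels of different genes are set side by side with no division by length. Differences between genes in how well their RNA is captured were not measured. INS cells had 2, 1 and 1 of 7 other beta-cell markers at 0 in replicates 1, 2 and 3, MAFA among them in every library, and a summed level of 1409, 581 and 5936 CPM, against 287 to 326 CPM in GCG cells. SST cells had 2, 1 and 4 of 5 other delta-cell markers at 0, so in replicate 3 HHEX alone was found. These markers summed to 92.5, 42.05 and 10.6 CPM, against 15.4, 13.5 and 7.65 CPM in GCG cells. SST cells also held 953, 536 and 394 CPM of the 7 beta-cell markers, above GCG cells. TPH1 cells held 1425, 1471 and 1453 CPM of other enterochromaffin markers, against 217 to 275 CPM in GCG cells, and collagen cells 1635 to 3126 CPM of other mesenchymal markers, against 0.487 to 7.65 CPM in GCG cells. INS and SST cells overlapped with the GCG rule: 23 of 26, 46 of 59 and 3 of 7 INS cells and 19 of 30, 37 of 54 and 24 of 29 SST cells also had GCG at 5% or more. Sums of GCG cells are therefore set against classes that are partly GCG-rich themselves, and cells that carry 2 hormones cannot be told apart from barcodes that hold 2 cells. In replicates 1, 2 and 3, 1, 9 and 1 INS cells also met the SST rule and count in both classes. Of these, 1, 5 and 1 had GCG below 5%. In INS cells of replicate 3, delta-cell markers with SST summed to 46906 CPM and beta-cell markers with INS to 46194 CPM. In replicates 1 and 2 the beta-cell sum was the higher.

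PCSK1 was a rare RNA in GCG cells and PCSK2 was not. PCSK1 had 3.34, 2.61 and 10.8 CPM in GCG cells of replicates 1, 2 and 3, from 48, 44 and 104 UMIs. It had 5.75, 12.1 and 273 CPM in INS cells, 37.4, 25.7 and 15.97 CPM in SST cells, 61.4, 24.1 and 152 CPM in TPH1 cells, and 0, 6.06 and 3.10 CPM in collagen cells. GCG cells were below INS, SST and TPH1 cells in every library. In collagen cells the sums were too shallow for a comparison, since a count of 0 still allows 19.7 CPM in replicate 1 (3 UMIs). Single cells weighed heavily in the small classes: 1 cell held 9 of the 15 INS-cell UMIs of replicate 2 and 27 of the 28 of replicate 3, and 1 cell held 13 of the 36 SST-cell UMIs of replicate 2. In order of their means, INS cells stood at 96.9 ± 152 CPM (SD, n = 3), TPH1 cells at 79.0 ± 65.6, SST cells at 26.3 ± 10.7, GCG cells at 5.57 ± 4.51 and collagen cells at 3.05 ± 3.03. By their SDs, only the step between SST and GCG cells is clear of the spread, and no order can be read among INS, TPH1 and SST cells or between GCG and collagen cells.

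PCSK2, which makes glucagon, had 79.6, 51.9 and 102 CPM in GCG cells, from 1144, 874 and 989 UMIs. It had 136, 71.0 and 38.99 CPM in INS cells, 76.5, 52.7 and 93.2 CPM in SST cells, 32.7, 18.1 and 28.8 CPM in TPH1 cells, and 0, 0 and 5.17 CPM in collagen cells. GCG, INS and SST cells overlapped (means of 77.9 ± 25.3, 82.0 ± 49.5 and 74.1 ± 20.3 CPM), while TPH1 cells (26.5 ± 7.60) and collagen cells (1.72 ± 2.98) lay below every GCG-cell value.

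**Figure D1:**
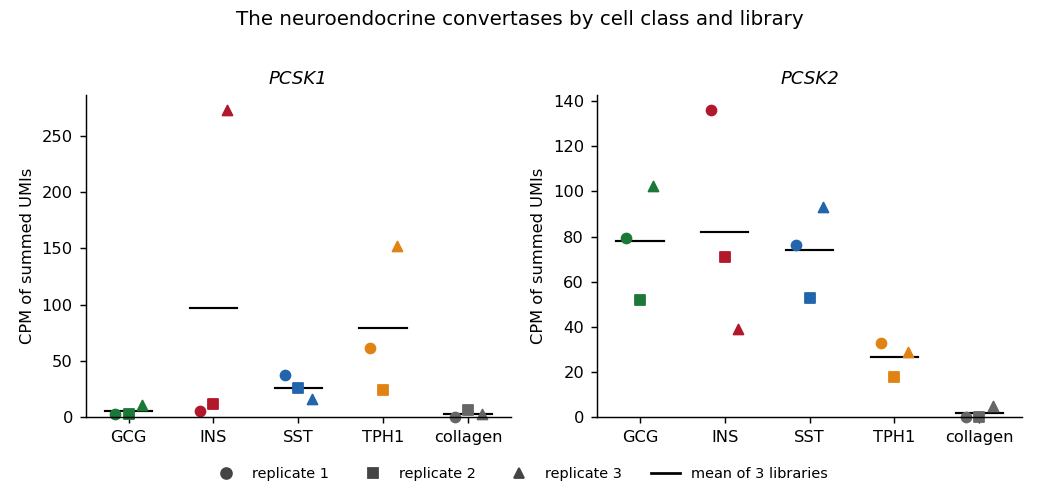
CPM of PCSK1 and PCSK2 in UMIs summed per cell class (x axis) and library (points), with the mean of the 3 libraries as a line. PCSK1 sits at 2.61 to 10.8 CPM in GCG cells and reaches 152 CPM in TPH1 cells and 273 CPM in the 7 INS cells of replicate 3, while PCSK2 sits at 51.9 to 102 CPM in GCG cells and at 18.1 to 32.7 CPM in TPH1 cells.

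The share of cells with at least 1 UMI follows depth, so it is given beside collagen cells, which were assumed to carry neither convertase. PCSK1 was found in 5.63% ± 1.99 of GCG cells (SD, n = 3), against 4.41% ± 5.10 of collagen cells, and after each cell was thinned at random to 5000 UMIs in 2.29% ± 1.25, against 0.813% ± 1.41. The collagen-cell share rests on 0 of 9, 1 of 10 and 3 of 93 cells, too few to say whether GCG cells lie above it. Free RNA was not measured. PCSK2 was found in 52.5% ± 5.16 of GCG cells, against 1.08% ± 1.86 of collagen cells, and after thinning in 27.7% ± 6.98, against 1.22% ± 2.11. Median UMIs were 16413, 21634.5 and 10392 in GCG cells and 16431, 15194.5 and 9291 in collagen cells. SST cells had PCSK1 in 20.9% ± 12.7 and TPH1 cells in 24.01% ± 11.9 after thinning, against 0.813% ± 1.41 of collagen cells.

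Counted together, the UMIs show which convertase RNA was counted more in a class. PCSK1 made up 4.03%, 4.79% and 9.52% of PCSK1 plus PCSK2 UMIs in GCG cells. Their 95% intervals (exact Clopper-Pearson, counting error only) ran 2.98 to 5.30%, 3.50 to 6.38% and 7.84 to 11.4%. In TPH1 cells it made up 65.2%, 57.1% and 84.05%, from 30, 8 and 137 PCSK1 UMIs beside 16, 6 and 26 PCSK2 UMIs. The TPH1 intervals were 49.8 to 78.6%, 28.9 to 82.3% and 77.5 to 89.3%. PCSK1 thus had more UMIs than PCSK2 there in each library, but the intervals of replicates 1 and 2 include equal counts. In replicate 1, 1 TPH1 cell held 11 of the 30 PCSK1 UMIs. In SST cells PCSK1 made up 32.8%, 32.7% and 14.6%. INS cells spread from 4.05% in replicate 1 through 14.6% in replicate 2 to 87.5% in replicate 3, the last from 28 PCSK1 and 4 PCSK2 UMIs.

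Within the INS and SST classes, the share was lower in GCG-rich cells than in the remaining cells of every library. INS cells with GCG at 5% or more had a PCSK1 share of 0%, 5.19% and 0%, beside 69, 73 and 2 PCSK2 UMIs, and INS cells below 5% GCG had 60%, 42.3% and 93.3%. SST cells with GCG at 5% or more had 14.7%, 14.7% and 7.14%, and those below 5% had 53.3%, 61.9% and 30.8%. The intervals of these SST subsets were apart in replicates 1 and 2. They overlapped in replicate 3 (0.877 to 23.5% against 9.09 to 61.4%), from 2 and 4 PCSK1 UMIs. The intervals of the INS subsets were 0 to 5.21% against 14.7 to 94.7% in replicate 1, 1.43 to 12.8% against 23.4 to 63.1% in replicate 2, and 0 to 84.2% against 77.9 to 99.2% in replicate 3, so those of replicate 3 overlap. The subsets below 5% GCG were small, with 3, 13 and 4 INS cells and 11, 17 and 5 SST cells. Among these INS cells, 1 cell held all 3 PCSK1 UMIs of replicate 1. In replicates 2 and 3, 1 cell held 9 of 11 and 27 of 28. Among SST cells below 5% GCG, 1 cell held 13 of the 26 PCSK1 UMIs of replicate 2. The intervals treat UMIs as independent and do not cover such spread between cells. GCG forms the GCG-rich and the remaining subsets, and the difference between them was not tested.

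**Figure D2:**
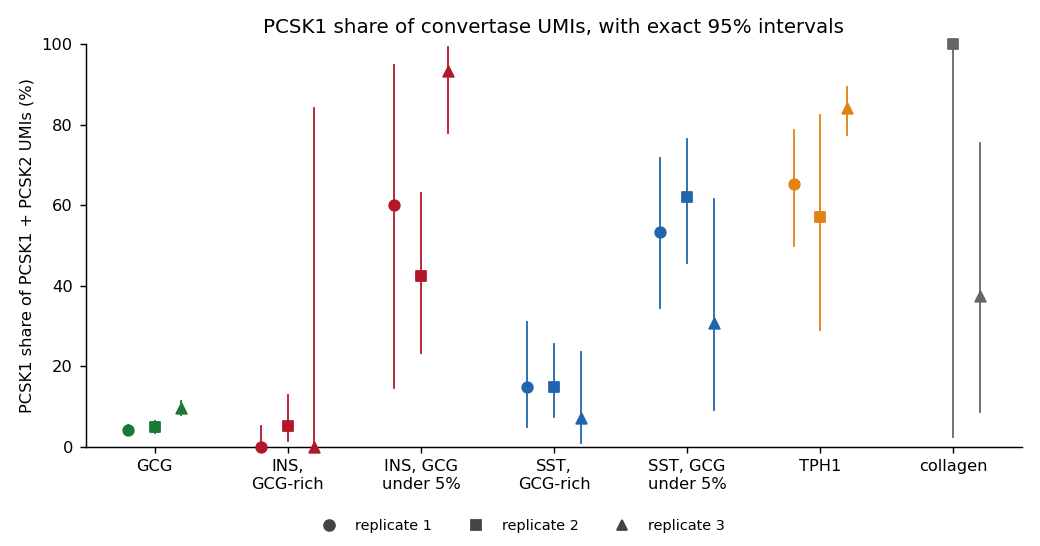
PCSK1 share of the summed PCSK1 and PCSK2 UMIs (y axis, percent) by cell class and library, with exact 95% intervals for counting error; INS and SST cells are split by whether GCG reached 5% of UMIs, and collagen cells of replicate 1 had no UMI of either gene. GCG cells lie at 4.03 to 9.52% and TPH1 cells at 57.1 to 84.05%.

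Where the UMIs of each gene lay gives the same picture by class. GCG cells supplied 73.2% ± 8.93 of all UMIs of kept cells (SD, n = 3), 82.3% ± 1.39 of PCSK2 UMIs and 80.03% ± 2.02 of SCG5 UMIs, but 33.7% ± 5.39 of PCSK1 UMIs and 56.3% ± 9.38 of PAM UMIs. TPH1 cells supplied 3.36% ± 2.25 of all UMIs and 21.8% ± 14.8 of PCSK1 UMIs. Cells that met no rule supplied 14.1% ± 7.70 of all UMIs and 22.3% ± 8.06 of PCSK1 UMIs, with PCSK1 at 14.3, 11.1 and 29.3 CPM.

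SCG5, the PC2 chaperone, had 561, 542 and 589.5 CPM in GCG cells, 699.8, 604 and 692 CPM in INS cells, 720.4, 600.1 and 626 CPM in SST cells, 270.2, 199 and 250.2 CPM in TPH1 cells, and 0, 12.1 and 16.5 CPM in collagen cells. Like PCSK2, it was highest in the 3 peptide-hormone classes, lower in TPH1 cells and near 0 in collagen cells. PCSK1N, the PC1/3 inhibitor, was the most abundant of the 8 RNAs in each class but collagen cells. It had 2986, 3273 and 3390.1 CPM in GCG cells, 2960.4 to 3526 CPM in INS cells, 3170.5 to 3509 CPM in SST cells, 3954, 3637 and 5006 CPM in TPH1 cells and 78.7 to 274 CPM in collagen cells. All 4 endocrine classes thus carried it at 2960.4 CPM or more, whichever convertase they held.

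CPE, the granule carboxypeptidase, had 820.5, 809.8 and 856 CPM in GCG cells, 1124, 1114 and 1053 CPM in INS cells and 1163, 1038 and 913 CPM in SST cells. TPH1 cells had 598, 619.8 and 586 CPM, and collagen cells 525, 176 and 543 CPM. GCG cells lay below INS and SST cells and above TPH1 and collagen cells in each library. CPD, the Golgi carboxypeptidase, had 54.6, 49.1 and 51.8 CPM in GCG cells, 59.4 to 87.7 CPM in INS cells, 15.97 to 59.2 CPM in SST cells, 98.2, 108 and 91.9 CPM in TPH1 cells and 13.1 to 30.3 CPM in collagen cells.

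PAM, which amidates peptides, was lowest in GCG cells, where it had 33.3, 35.5 and 29.1 CPM. It had 47.9, 48.4 and 97.5 CPM in INS cells, 85.4, 51.3 and 31.9 CPM in SST cells, 141, 150.4 and 99.6 CPM in TPH1 cells, and 45.97, 48.5 and 40.3 CPM in collagen cells. GCG cells were below the 4 other classes in every library. PAM was also the member that collagen cells held at a level like that of the hormone classes. FURIN had 67.6, 71.8 and 65.1 CPM in GCG cells, 38.99 to 65.4 CPM in INS cells, 34.6 to 78.3 CPM in SST cells, 91.9 to 120.3 CPM in TPH1 cells and 12.1 to 19.7 CPM in collagen cells.

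**Figure D3:**
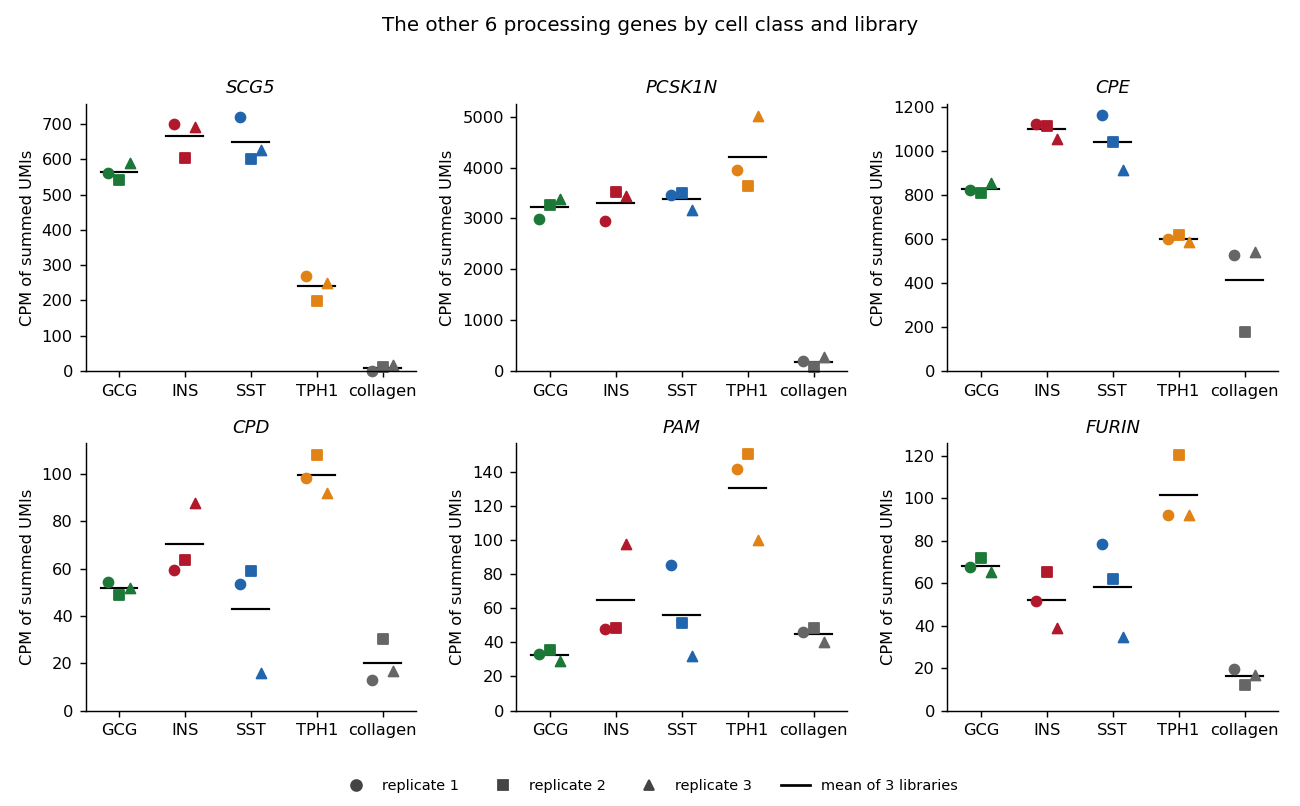
CPM of SCG5, PCSK1N, CPE, CPD, PAM and FURIN in UMIs summed per cell class (x axis) and library (points), with the mean of the 3 libraries as a line. SCG5 and CPE are lower in TPH1 than in GCG cells in each library, PAM and CPD are higher, and PCSK1N lies between 2960.4 and 5006 CPM in all 4 endocrine classes.

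Each class was then tested against GCG cells on all genes with edgeR's quasi-likelihood test on the summed counts, with the library as a block, genes with too few counts left out, and p-values adjusted over every gene tested by Benjamini-Hochberg. A gene is called at an adjusted p under 0.05. The genes that form a class were not tested. All 8 genes passed the filter on low counts in these 4 comparisons.

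Of the 3 other endocrine classes, TPH1 cells had the most genes called against GCG cells, 6 of 8, 3 higher and 3 lower in GCG cells; over all genes 15.1% were called, 7.99% higher and 7.13% lower. Higher in GCG cells were PCSK2 by 2.05 ± 0.19 on the log2 scale (SE, 3 libraries, adjusted p = 1.2e-07), its chaperone SCG5 by 1.70 ± 0.11 (adjusted p = 1.8e-09) and the carboxypeptidase CPE by 0.94 ± 0.09 (adjusted p = 4.0e-07). The genes lower in GCG cells were PCSK1 (-3.38 ± 0.24, adjusted p = 5.0e-09), PAM (-1.50 ± 0.14, adjusted p = 1.3e-07) and CPD (-0.45 ± 0.14, adjusted p = 0.0325). PCSK1N (0.09 ± 0.09) and FURIN (-0.09 ± 0.14) were not called. Fold changes are relative to the typical gene, by scaling factors of 0.84 to 0.86 for GCG cells and 1.15 to 1.21 for TPH1 cells. These factors raise every fold change above the ratio of CPM. The median log2 ratio of CPM was -0.27 with 10 CPM added to each side, an addition that shrinks it. With the same 10 CPM added, PCSK1N was lower in GCG cells in each library, by 0.15 to 0.56, and so was FURIN, by 0.40 to 0.67. The CPD call ended without replicate 1 (adjusted p = 0.128), without replicate 2 (0.0841), without replicate 3 (0.118), with DESeq2 (0.226), with no filter on low counts (0.103) and after thinning to 5000 UMIs (0.401), while the other 5 calls held under all 15 alternatives.

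Against SST cells, 3 of 8 genes were called, all lower in GCG cells (1.21% of all genes were called, 0.782% lower and 0.431% higher). They were PCSK1 (-2.67 ± 0.33 on the log2 scale, SE, 3 libraries, adjusted p = 2.1e-08), PAM (-0.76 ± 0.18, adjusted p = 0.00765) and CPE (-0.34 ± 0.08, adjusted p = 0.00865). PCSK2 stood at 0.04 ± 0.14 and was not called, like SCG5 (-0.21 ± 0.08), PCSK1N (-0.08 ± 0.07), CPD (0.08 ± 0.17) and FURIN (0.19 ± 0.15). With only the GCG-rich SST cells PCSK1 stood at -1.20 (adjusted p = 0.458). With them left out it stood at -4.70 (adjusted p = 7.8e-19) on replicates 1 and 2, since replicate 3 then had 5 SST cells; without replicate 3 and with all SST cells it stood at -3.33. The PAM call held under 11 of 16 alternatives and that of CPE under 8 of 16: both ended without replicate 1 (PAM -0.46, adjusted p = 0.644; CPE adjusted p = 0.248), with DESeq2 (0.346 and 0.104), after thinning (0.917 and 0.847), without the block (0.326 and 0.548) and with only GCG-rich SST cells (0.541 and 0.0699). CPE also ended without replicate 2 (adjusted p = 0.272), with GCG-rich cells left out (0.264) and with stricter classes (0.162), and PCSK1 without the block (0.196).

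Against INS cells the test had replicates 1 and 2 alone, since a library entered with at least 10 cells of each class. It called 3 of 8 genes, all lower in GCG cells, where 1.36% of all genes were called, 0.886% lower and 0.473% higher. They were CPE (-0.47 ± 0.08 on the log2 scale, SE, 2 libraries, adjusted p = 8.1e-07), PCSK2 (-0.61 ± 0.14, adjusted p = 0.00176) and PCSK1 (-1.79 ± 0.52, adjusted p = 0.0404). PAM (-0.47 ± 0.18), CPD (-0.29 ± 0.16), SCG5 (-0.24 ± 0.08), PCSK1N (-0.06 ± 0.08) and FURIN (0.22 ± 0.15) were not called. In replicate 3, outside the test, PCSK2 was higher in GCG cells (102 CPM) than in INS cells (38.99 CPM). With only the GCG-rich INS cells PCSK1 stood at 0.02 (adjusted p = 1.00), and its call also ended in cells thinned to 5000 UMIs (-2.36, adjusted p = 0.219), with no filter on low counts (adjusted p = 0.103) and without the block (0.195); without replicate 2 it stood at -0.75, with no test. The PCSK2 value was -0.21 after thinning, -0.44 (adjusted p = 0.119) when the 7 INS cells of replicate 3 entered, and -0.16 (adjusted p = 0.824) with a mitochondrial limit of 30%, which also brought in replicate 3, with 20 INS cells. The PCSK2 call was also not made by DESeq2 (adjusted p = 0.306) or without the block (0.705).

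Collagen cells held PCSK1, PCSK2 and SCG5 near 0, while CPE was found in 80.5% ± 3.08 of them, PCSK1N in 46.9% ± 7.92 and PAM in 39.0% ± 18.8 (SD, n = 3). In the edgeR test, on replicates 2 and 3, 6 of 8 genes were called, all higher in GCG cells, where 34.2% of all genes were called, 18.1% higher and 16.2% lower. SCG5 was higher by 5.39 ± 0.31 on the log2 scale (adjusted p = 2.9e-66), PCSK2 by 4.60 ± 0.57 (adjusted p = 1.1e-14), PCSK1N by 4.45 ± 0.16 (adjusted p = 5.1e-161), FURIN by 2.28 ± 0.44 (adjusted p = 1.6e-06), CPD by 1.55 ± 0.45 (adjusted p = 0.00266) and CPE by 1.52 ± 0.19 (adjusted p = 4.4e-14). The PCSK2 value rests on 5 UMIs in collagen cells, all in replicate 3. PCSK1 (1.41 ± 0.99) and PAM (-0.25 ± 0.41) were not called, and PCSK1 had 1 and 3 UMIs in collagen cells of these libraries. The CPD call was not made by DESeq2 (adjusted p = 0.0968). CPE stood at 0.93 without replicate 2 and at 2.68 without replicate 3, with no test. Collagen cells also held 672 to 1340 CPM of 4 cell-cycle genes, against 1.46 to 24.6 CPM in GCG cells, and a median of 9.18 to 10.7% mitochondrial UMIs, against 14.7 to 15.1% in GCG cells; the part of these in the fold changes was not tested.

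**Figure D4:**
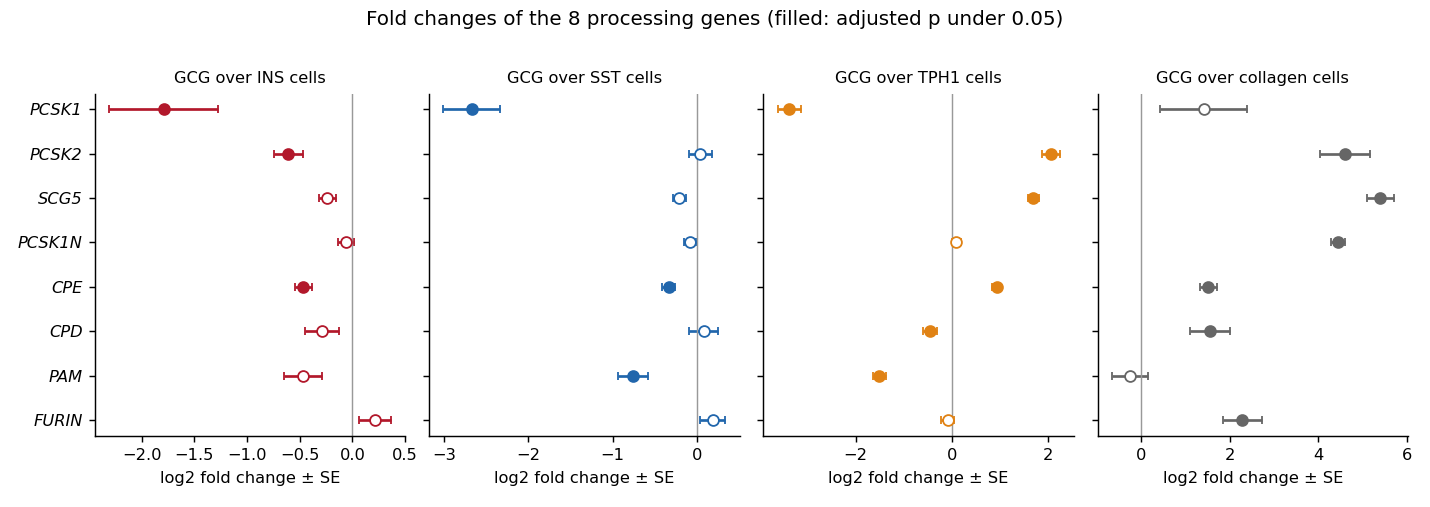
Log2 fold change of GCG cells over INS, SST, TPH1 and collagen cells (x axis of the 4 panels, each with its own range) for the 8 genes, with bars for ± 1 SE; filled points have an adjusted p under 0.05. PCSK1 lies left of 0 against the 3 other endocrine classes, and PCSK2 lies at 2.05 against TPH1 cells and at 4.60 against collagen cells.

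Whether PCSK1 and PCSK2 go together from cell to cell was described in all 854, 860 and 914 GCG-rich cells of replicates 1, 2 and 3 (GCG at 5% or more, whatever else they held). Of these, 816, 775 and 861 had 5000 or more UMIs and were thinned to that number. The Spearman correlation was -0.04, 0.09 and 0.07, over cells that share a library and depth. After thinning, 18, 15 and 31 cells had a PCSK1 UMI, of which 0, 1 and 4 had more than 1. PCSK2 was found in 16.7% (3 cells), 46.7% (7 cells) and 48.4% (15 cells) of the PCSK1-positive cells, against 28.9%, 21.1% and 34.6% of PCSK1-zero cells. The exact 95% intervals of PCSK1-positive and PCSK1-zero cells were 3.58 to 41.4% against 25.8 to 32.2%, 21.3 to 73.4% against 18.2 to 24.1%, and 30.2 to 66.9% against 31.3 to 37.9%, and they overlapped in each library. In unthinned cells the intervals were apart in replicate 2, with PCSK2 in 71.7% (56.5 to 84.0%) of PCSK1-positive cells against 47.4% (43.9 to 50.9%) of PCSK1-zero cells and a correlation of 0.11, and overlapped in replicates 1 and 3. In cells thinned to 10000 UMIs the correlation was 0.04, 0.04 and -0.06, so its sign changed in replicates 1 and 3.

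The same 2 sets of cells were tested on the other 7 genes, and none was called (0.0957% of all genes were called, 0.0287% higher and 0.067% lower; no member had an unadjusted p under 0.05, and DESeq2 called none). PCSK2 had 44.4, 120.0 and 174 CPM in PCSK1-positive cells and 78.7, 55.0 and 97.1 CPM in PCSK1-zero cells, a log2 difference of 0.41 ± 0.26 (SE, 3 libraries, adjusted p = 0.979). It was lower in PCSK1-positive cells of replicate 1 and higher in those of replicates 2 and 3. PAM had 66.7, 26.7 and 71.0 CPM in PCSK1-positive cells and 36.8, 31.8 and 27.95 CPM in PCSK1-zero cells (0.69 ± 0.40, adjusted p = 0.961). In unthinned cells, where deeper cells are likelier to count as PCSK1-positive, PAM passed (0.91, adjusted p = 3.1e-08). The remaining 5 lay between -0.69 ± 0.41 for CPD and -0.01 ± 0.13 for CPE, where the typical gene stood at -0.15. PCSK1-positive cells held 7389, 4667 and 865 CPM of SST, against 1113, 2026 and 1166 CPM in PCSK1-zero cells, and the part of SST-bearing cells was not tested. Among the 28 pairs of the 8 genes, no correlation over thinned cells left the range -0.10 to 0.11 in any library.

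The GCG level itself went with the convertases. GCG-rich cells of each library were split into tertiles by GCG share, and the upper tertile (GCG at 21.6%, 21.99% and 19.3% of UMIs) was tested against the lower (8.41%, 8.75% and 7.06%), with 284, 286 and 304 cells on each side. PCSK2 had 89.9, 55.9 and 108 CPM in GCG-high cells and 69.9, 44.5 and 88.6 CPM in GCG-low cells. PCSK1 had 1.71, 1.496 and 5.38 CPM in GCG-high cells and 6.27, 5.59 and 11.6 CPM in GCG-low cells. PAM had 23.1, 24.9 and 24.8 CPM in GCG-high cells and 42.6, 54.9 and 33.1 CPM in GCG-low cells. GCG-high cells were thus above GCG-low cells in PCSK2 and below them in PCSK1 and PAM in all 3 libraries.

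The test called 4 of 8 genes, against 1.94% of all genes (1.03% higher and 0.915% lower in GCG-high cells). PCSK2 (0.63 ± 0.07, adjusted p = 7.3e-06) and SCG5 (0.36 ± 0.05, adjusted p = 0.000297) were higher in GCG-high cells, and PCSK1 (-1.24 ± 0.27, adjusted p = 0.0113) and PAM (-0.59 ± 0.11, adjusted p = 0.00283) were lower. CPE (0.13 ± 0.05), PCSK1N (0.10 ± 0.05), CPD (-0.19 ± 0.08) and FURIN (-0.15 ± 0.07) were not called. A higher GCG share lowers the share left for other genes, so these values are relative to the typical gene. Scaling factors were 0.894 to 0.907 for GCG-high cells and 1.103 to 1.128 for GCG-low cells. These factors raise every fold change above the ratio of CPM. The median log2 ratio of CPM was -0.19 with 10 CPM added to each side, an addition that shrinks it. On plain CPM SCG5 was level, at 566, 585 and 579 CPM in GCG-high cells and 571, 527 and 573 CPM in GCG-low cells. The SCG5 call is therefore one relative to the typical gene, not one in CPM. Among cells with GCG at 10% or more, SCG5 alone was called: PCSK2 stood at 0.28 (adjusted p = 0.105), PCSK1 at -1.02 (adjusted p = 0.131) and PAM at -0.39 (adjusted p = 0.104). The PAM call also ended without replicate 2 (-0.39, adjusted p = 0.0826) and after thinning (adjusted p = 0.225), and none of the 4 calls was made without the block (adjusted p of 0.642 to 0.998). PCSK1 was not among the genes tested after thinning, and DESeq2 gave no adjusted p for PCSK2, PCSK1 or PAM. Depth differed as well. Median UMIs were 14819, 16924 and 9359 in cells with 5 to 10% GCG and 20348.5, 24460.5 and 14567 at 20% and over.

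In UMIs per 1e+06 non-GCG UMIs, PCSK2 stood at 72.5 ± 23.8 in cells with 5 to 10% GCG, 96.0 ± 38.8 at 10 to 15%, 99.999 ± 34.7 at 15 to 20% and 109 ± 28.8 above (SD, n = 3). It was higher at each next step in replicates 1 and 2, and in replicate 3 it was lowest in the first step and 128 in the last. PCSK1 stood at 9.71 ± 4.40, 7.23 ± 6.05, 3.16 ± 0.951 and 3.79 ± 3.64 over the same steps, from 103, 67, 28 and 20 UMIs. PAM stood at 48.8 ± 14.5, 41.4 ± 6.02, 37.3 ± 2.04 and 29.1 ± 1.46, while PCSK1N stayed between 3771 and 3811.

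**Figure D5:**
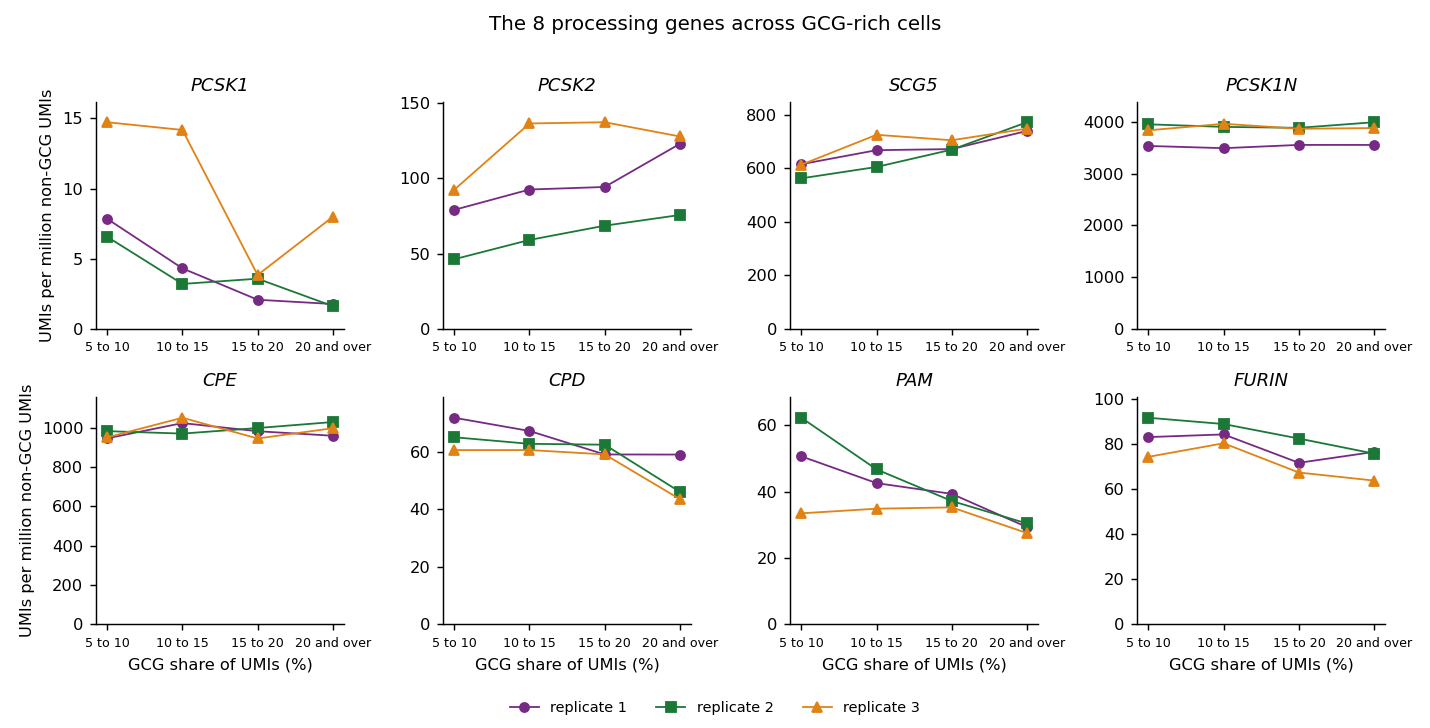
UMIs per 1e+06 non-GCG UMIs of the 8 genes (y axes from 0) in GCG-rich cells binned by GCG share of UMIs (x axis), 1 line per library. PCSK2 and SCG5 are lowest and PAM highest in the 5 to 10% bin on average over libraries, and PCSK1N is flat at 3771 to 3811 on average.

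Beyond the 8 genes, 38 others of the pathway were read from 6 lists. Against TPH1 cells, where 7.99% of all genes were called higher and 7.13% lower in GCG cells, end modification and sulfation had 2 of 3 tested genes higher and 1 lower. QPCT, which caps N-terminal glutamine, stood at 1.00 ± 0.14 and TPST1 at 1.15 ± 0.32, but TPST2, the other tyrosine sulfotransferase, at -1.95 ± 0.16. TPST2 was also lower in GCG cells than in SST cells (-1.12 ± 0.21) and INS cells (-1.002 ± 0.209). Of the cathepsins, the lysosomal proteases, CTSL (0.90 ± 0.15) and CTSD (0.89 ± 0.11) of 4 tested were higher in GCG than in TPH1 cells, beside the same 7.99% of all genes. Other cathepsin calls went the other way: CTSB was lower in GCG than in INS cells (-0.53 ± 0.13), and CTSV (-7.65 ± 1.02) and CTSH (-2.70 ± 0.75) were lower than in collagen cells, where CTSD was higher (2.31 ± 0.25). CTSD was also lower in GCG-high than in GCG-low cells (-0.43 ± 0.06). The granule proton pump list had 2 of 9 higher against TPH1 cells, ATP6AP2 (1.19 ± 0.13) and ATP6AP1 (0.61 ± 0.12), beside 7.99% of all genes. Against collagen cells 7 of 9 were higher, where 18.1% of all genes were called higher. Of the other carboxypeptidases, the gene named CPM was lower in GCG than in TPH1 cells (-2.26 ± 0.21), 1 of 3 tested, beside 7.13% of all genes. It was also lower in GCG-high than in GCG-low cells (-0.63 ± 0.14), 1 of 2 tested, beside 0.915% of all genes. CPXM1 (-4.98 ± 0.59) and AEBP1 (-1.47 ± 0.44) were lower in GCG than in collagen cells, 2 of 3 tested, beside 16.2% of all genes. None of 5, 4 and 5 tested other convertases was called against INS, SST and TPH1 cells, where 1.36%, 1.21% and 15.1% of all genes were called. So few genes cannot be told apart from those shares. Against collagen cells PCSK7 (1.32 ± 0.38) was higher and PCSK5 (-2.37 ± 0.84) lower, of 4 tested, beside 18.1% of all genes higher and 16.2% lower.

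Of the peptide breakdown list, DPP4, the protease that inactivates GLP-1, was higher in GCG cells than in SST (0.83 ± 0.10), TPH1 (2.18 ± 0.14) and collagen cells (5.66 ± 0.37). It was 1 of 7 tested against SST and against TPH1 cells, where 0.431% and 7.99% of all genes were called higher. Against collagen cells 3 of 8 were higher, ECE1 (2.45 ± 0.52) among them, beside 18.1% of all genes. There MME was lower (-7.22 ± 1.17), 1 of 8, beside 16.2% of all genes. Among GCG-rich cells DPP4 was lower in the GCG-high ones (-1.47 ± 0.08, adjusted p = 5.1e-12), 1 of 7 tested, where 0.915% of all genes were called lower. The median fold change of the 8 genes was -0.38 against INS cells, -0.15 against SST cells, 0.004 against TPH1 cells and 1.92 against collagen cells, beside 0.01, 0.005, 0.02 and 0.21 over all tested genes.

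The genes most like each convertase were sought over the 15 sums of 5 classes and 3 libraries among 4246 genes, by Pearson correlation of log2(CPM + 10). For PCSK2 they were PPP1R1A (0.96), SERPINI1 (0.95), GCG, which forms the classes (0.95), FGD4 (0.95) and DPP4 (0.95). For PCSK1 they were SMARCC2 (0.92), EFCAB2 (0.87), MRPL42 (0.85), ALDH9A1 (0.85) and CCNY (0.85), and here the sums of few cells weigh most, with 5.75 to 273 CPM in INS cells. The sums share libraries and depth, and the correlations are a description.

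In GRCh38 annotation PCSK1 (ENSG00000175426) spans bases 96390415 to 96434143 of chromosome 5 and PCSK2 (ENSG00000125851) bases 17226107 to 17484578 of chromosome 20. SCG5 (ENSG00000166922) lies on chromosome 15 at 32641676 to 32697098 and FURIN (ENSG00000140564) on the same chromosome at 90868592 to 90883458. PCSK1N (ENSG00000102109) lies on chromosome X at 48831094 to 48835633, CPE (ENSG00000109472) on chromosome 4 at 165361194 to 165498320, PAM (ENSG00000145730) on chromosome 5 at 102753981 to 103031105 and CPD (ENSG00000108582) on chromosome 17 at 30378905 to 30469989. All 8 are protein-coding. Genes annotated over PCSK1, PCSK2, SCG5 and CPE are antisense RNAs, pseudogenes and a microRNA, and the antisense RNAs of PCSK1 and SCG5, which were counted, held 1 and 0 UMIs in kept cells.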

How the data were processed

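Single-cell RNA was measured in 3 libraries with no sample left out. Per the submitters' processing notes the reads were processed with Cell Ranger 4.0.0 against GRCh38; the deposited files hold counts, the whole-number UMI counts per gene and barcode, not normalized, for barcodes with 500 or more UMIs. No aligner settings, annotation release or intron setting are given in the sources used here. The 8 genes and the gene and marker lists were chosen with earlier results of these data known.

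From the counts, barcodes with 1000 or more genes and at most 20% mitochondrial UMIs were kept, classed by the rules given above and summed per class and library. Scrublet in scanpy 1.11.5 (expected rate 0.8% per 1000 barcodes) marked 23 of 3653 kept barcodes (0.63%), which were kept and removed in an alternative. Sums of 10 or more cells were tested with edgeR 4.0.16 (limma 3.58.1, R 4.3.3; TMM, filterByExpr, quasi-likelihood F test, Benjamini-Hochberg over all tested genes), in 6 comparisons. The library was a block in each fit, because the 2 sums compared were made from 1 library. SEs are the fold change over the root of F. The code was tested on simulated data. INS cells could be tested in replicates 1 and 2 and collagen cells in replicates 2 and 3. Intervals are exact Clopper-Pearson at 95% and cover counting error only, and so does the limit of 3 counts for a count of 0. Thinning drew 5000 UMIs per cell at random and left out shallower cells, so that 773, 697 and 832 GCG cells and 9, 10 and 82 collagen cells of replicates 1, 2 and 3 remained. The class rules, the tertile split and the PCSK1 split use genes of the same counts, so those genes were left out of their tests. Named genes are all 8 members, up to 3 called genes per other list and comparison with the largest absolute fold change, and for likeness the 5 highest correlations among genes with a mean of 50 CPM or more in a class. Alternatives were DESeq2 1.42.0 and its size factors, no filter, no block, each replicate left out, other limits on genes, mitochondrial share, GCG share and class, thinning and overlap of classes. Other software was Python 3.11.15, numpy 2.4.6, scipy 1.17.1, pandas 2.3.3 and matplotlib 3.10.9.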

Additional observations from a re-analysis of the deposited data

How the results depend on the processing

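Of the fold changes of the 8 genes recomputed under each alternative, 540 with an adjusted p kept their direction and side of the threshold, 23 without one moved by less than 1 SE, 40 lost the call with the same direction, 4 gained one, 29 changed sign and 13 without an adjusted p moved by more; where not said otherwise the cause was not tested. Against TPH1 cells PCSK1, PCSK2, SCG5, CPE and PAM were called under all 15 alternatives. Counts below are members called and then all genes called.

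With DESeq2, INS cells had 1 and 32 (main 3 and 181; 6 of 8 members had an adjusted p), SST cells 1 and 41 (main 3 and 152), TPH1 cells 1090 genes (main 1952), collagen cells 2181 genes (main 4509), PCSK1-positive cells 2 genes (main 10) and GCG-high cells 1 and 93 (main 4 and 238; 3 of 8 members had an adjusted p). Without the replicate block, INS cells had 0 and 31, SST cells 0 and 4, PCSK1-positive cells 1 gene, and GCG-high cells 0 and 0. After thinning to 5000 UMIs, INS cells had 1 and 40, SST cells 1 and 31, collagen cells 2632 genes and GCG-high cells 2 and 129. Leaving GCG-rich cells out of the SST class, or stricter classes, also left replicate 3 out of that fit. With only GCG-rich cells in the SST class, an alternative chosen after seeing the data like that of at least 5 cells per sum, the counts were 1 and 65. PCSK1-positive cells had 18 genes at a minimum of 2000 genes, 1 member and 117 genes unthinned, 27 genes at 10000 UMIs and 3 with cells of other classes left out, which also left replicate 2 out (6 PCSK1-positive cells). GCG-high cells had 390 genes with no filter, 418 at a mitochondrial limit of 30%, 448 at a minimum of 2000 genes, and 1 member with GCG at 10%. Leaving out a replicate gave 1 to 3 members and 86 to 175 genes for SST cells, 5 members and 1057 to 2176 genes for TPH1 cells, 2 to 7 genes for PCSK1-positive cells, and 3 to 4 members and 99 to 397 genes for GCG-high cells; for INS and collagen cells it leaves 1 pair and no test.

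Signs changed in the following, all but 1 of them for values not called. Against INS cells: PCSK1N without replicate 2 (0.0026; -0.0465 without replicate 1) and with at least 5 cells (0.0021), FURIN (-0.25) and CPD (0.0228) after thinning, and PCSK1, which was called, with only GCG-rich cells (0.0154). Against SST cells: CPD without a replicate (-0.127 to 0.52), at 30% mitochondrial (-0.0120), with GCG-rich cells left out (-0.0911) and with stricter classes (-0.27), PCSK1N with GCG-rich cells left out (0.0486), and SCG5 with them left out (0.22) or stricter classes (0.0898). Without a replicate PCSK1N against TPH1 cells was -0.0317 to 0.22, and against collagen cells PCSK1 was -0.69 to 1.92 and PAM -0.20 to 0.0286. In PCSK1-positive cells CPE was 0.11 with DESeq2 or its size factors, -0.0687 to 0.0384 without a replicate, 0.12 at 2000 genes, 0.18 unthinned and 0.11 at 10000 UMIs; PCSK2 was -0.0462 to 0.74 without a replicate; FURIN was 0.0050 and CPD 0.14 at 30% mitochondrial; CPD was 0.31 at 2000 genes and 0.0286 at 10000 UMIs; PCSK1N was 0.0719 unthinned and 0.0322 at 10000 UMIs. In GCG-high cells CPD was 0.0582 after thinning.

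Too few cells were left to run INS cells with GCG-rich cells left out or a stricter threshold, collagen cells at 2000 genes or a stricter threshold, and PCSK1-positive cells at 10% GCG or 2 PCSK1 UMIs. PCSK1 in GCG cells rests on 44 to 104 UMIs per library, and INS and collagen cells on as few as 7 and 9 cells, which limits what differences could be seen.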

Other observations

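Outside the peptide processing genes, 10 genes were called between PCSK1-positive and PCSK1-zero GCG-rich cells, and they are named because they are all of those called, after their values were seen. The number called was 2 with DESeq2, 1 without the block, and 3 with cells of the other classes left out, a fit that also lacked replicate 2. INS and SST are among the genes that define the other classes. Lower in PCSK1-positive cells by edgeR were INS (-1.31 ± 0.14 on the log2 scale, SE, adjusted p = 1.3e-15), SPINK1, a trypsin inhibitor (-1.15 ± 0.13), AFP (-3.14 ± 0.49) and APOA1 (-1.60 ± 0.30), both made in quantity by liver cells, AGT (-1.01 ± 0.22), ELF3 (-1.84 ± 0.43) and CRYBA2 (-0.53 ± 0.12). Higher were SST (1.03 ± 0.13), CRH, the corticotropin-releasing hormone (0.78 ± 0.18), and TM4SF4 (1.14 ± 0.27). INS had 856, 1387 and 219 CPM in PCSK1-positive cells of replicates 1, 2 and 3, against 1958, 2749 and 421 CPM in PCSK1-zero cells. SST was higher in PCSK1-positive cells of replicates 1 and 2 and lower in those of replicate 3, a spread that its SE does not cover. AFP had 0, 40.0 and 6.45 CPM in PCSK1-positive cells, against 139, 181 and 20.2 CPM in PCSK1-zero cells. The PCSK1-positive sums hold 18, 15 and 31 cells.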
